A study of Mus musculus with 10 samples.

Results

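The G1 cyclins and the inhibitors of their kinases were followed over 5 mouse cell cultures that lead from embryonic stem cells to neural stem cells. The set was a list of 10 genes out of 19938 analysed: the D-type cyclins Ccnd1, Ccnd2 and Ccnd3, the E-type cyclins Ccne1 and Ccne2, and the inhibitors Cdkn1a, Cdkn1b, Cdkn2a, Cdkn2b and Cdkn2c. Each gene was represented by its probe set with the highest mean. Values are given for 9 of the 10, because the only probe set of Cdkn1a is annotated to 2 gene symbols and cannot be assigned to Cdkn1a alone.

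Total RNA of each culture was hybridised to Affymetrix whole-transcript arrays, with 2 biological replicates per culture and 1 array each. The mESC were R1 cells, a line from the 129/Sv strain, kept on mitomycin C-inactivated mouse embryonic fibroblasts in 15% FBS with Lif at 1000 U/ml. The p-NSC_L were primitive neural stem cell spheres grown from these cells in serum-free N2 medium with Lif at 1000 U/ml. The p-NSC_LF were their secondary passage, in Lif at 1000 U/ml with 10 ng/ml FGF and 2 µg/ml heparin. The d-NSC, definitive neural stem cells, came from the primitive ones by passage into N2 and B27 with 20 ng/ml EGF, 20 ng/ml FGF and 2 µg/ml heparin, without Lif. The CNS-NSC were wild-type cells cultured from the frontal lobes of E11.5 embryos of the ICR strain in N2 with 20 ng/ml EGF, 20 ng/ml FGF and 2 µg/ml heparin. The first 4 cultures thus share 1 cell line. The CNS-NSC differ from them in strain and origin, and strain, origin and culture cannot be told apart in any comparison with CNS-NSC.

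D-type cyclins bind the kinases Cdk4 and Cdk6 in response to growth factors, and E-type cyclins bind Cdk2. Both kinds of complex phosphorylate the retinoblastoma protein and its relatives, which releases E2F factors and lets a cell pass from G1 into S phase. The Cdkn2 proteins (INK4 family) bind Cdk4 and Cdk6 and keep D-type cyclins off, while the Cdkn1 proteins (Cip/Kip family) bind assembled cyclin-kinase complexes. Mouse embryonic stem cells are known for a short G1 phase with high cyclin E activity, and neural stem cells for a longer G1 phase that leans on D-type cyclins.

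The promoters of the 3 INK4 genes are shown because Cdkn2c had the widest change among the inhibitors measured and because Cdkn2a and Cdkn2b lie next to each other. In the RefSeq table (GRCm38.p6), Cdkn2a and Cdkn2b are separated by 11669 bases of chromosome 4, with no other gene listed wholly between them. RefSeq gives Cdkn2a a pair of starts. The upstream one serves the transcript of the p19ARF protein and the downstream one that of p16INK4a, and the Cdkn2a probe set is annotated to both transcripts, so its value cannot separate them. Each window runs 5′ to 3′ from 250 bases before to 50 bases after the start, and capitals mark a match to the E2F motif TTCCCGC or TTGGCGC, searched on both strands.
Cdkn2c, upstream start (chr4:109666707-109667006, minus strand): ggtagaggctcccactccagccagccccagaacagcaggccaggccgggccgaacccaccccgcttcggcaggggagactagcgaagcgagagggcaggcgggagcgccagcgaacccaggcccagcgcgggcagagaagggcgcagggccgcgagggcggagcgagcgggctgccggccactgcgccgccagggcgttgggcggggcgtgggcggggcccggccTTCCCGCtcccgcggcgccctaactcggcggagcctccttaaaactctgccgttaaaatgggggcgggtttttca
Cdkn2a, upstream start (chr4:89294570-89294869, minus strand): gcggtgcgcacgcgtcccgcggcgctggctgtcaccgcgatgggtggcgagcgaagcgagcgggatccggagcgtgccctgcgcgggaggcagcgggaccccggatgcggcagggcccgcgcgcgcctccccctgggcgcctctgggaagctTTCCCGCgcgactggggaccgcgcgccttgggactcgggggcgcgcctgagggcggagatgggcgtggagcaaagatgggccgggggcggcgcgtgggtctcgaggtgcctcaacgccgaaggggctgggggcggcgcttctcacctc
Cdkn2a, downstream start (chr4:89282143-89282442, minus strand): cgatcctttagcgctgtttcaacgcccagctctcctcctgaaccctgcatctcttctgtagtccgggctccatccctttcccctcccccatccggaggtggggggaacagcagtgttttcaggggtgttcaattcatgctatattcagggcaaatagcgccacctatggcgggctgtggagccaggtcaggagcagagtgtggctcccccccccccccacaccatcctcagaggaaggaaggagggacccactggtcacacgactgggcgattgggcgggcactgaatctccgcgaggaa
Cdkn2b (chr4:89310983-89311282, minus strand): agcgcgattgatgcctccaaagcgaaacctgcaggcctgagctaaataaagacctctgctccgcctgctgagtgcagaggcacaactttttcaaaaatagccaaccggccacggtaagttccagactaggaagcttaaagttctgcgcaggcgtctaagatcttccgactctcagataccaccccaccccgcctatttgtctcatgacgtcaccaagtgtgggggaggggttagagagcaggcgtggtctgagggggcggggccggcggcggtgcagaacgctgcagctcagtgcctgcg
The Cdkn2c match begins 25 bases before its upstream start and the Cdkn2a match 98 bases before its upstream start. Cdkn2c also has a downstream start (chr4:109665323-109665622, minus strand), whose window is not printed and held no match. RefSeq windows were found for 7 of the 10 genes, 11 windows in all, and 2 of the 11 held a match, against 6.81% of the 32851 windows of all genes. A match is a description of the letters only. The count leaves out Ccnd1, Ccnd2 and Ccne2.

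Levels are log2 intensities, so that a step of 1 is a 2-fold change, and each gene is compared only with itself. Each difference is the first group minus the second, with its SE as estimated by limma for 2 arrays a group. A gene is called, and said to rise or fall, where its p-value was below 0.05 after Benjamini-Hochberg adjustment across the 19938 genes. All 9 genes measured differed among the 5 cultures by limma's moderated F test (adjusted p between 3.0e-09 and 8.2e-04), as did 57.7% of all genes. The group means of 7 of the 9 spanned at least 1, against 28.4% of all genes, and the median span was 1.76 for the 9 genes against 0.59 for all genes. Ccnd2 spanned 5.46, more than 99.7% of all genes, Cdkn2c 4.37 and Ccnd1 3.99. Cdkn2a, at 0.58, and Cdkn1b, at 0.71, spanned about as much as a typical gene.

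Marker levels separated 3 kinds of culture. The mean level of 8 pluripotent cell markers was 12.08 to 12.17 on the mESC arrays, 12.33 to 12.43 on the 4 primitive arrays, 9.63 and 9.68 in d-NSC, and 7.06 and 7.17 in CNS-NSC. The 8 neural stem cell markers averaged 7.60 and 7.61 in mESC, 7.68 to 7.84 in the primitive cultures, 9.88 and 9.89 in d-NSC, and 11.97 and 12.01 in CNS-NSC. Both primitive cultures thus lay near mESC in these 2 means, and d-NSC lay between mESC and CNS-NSC. Single neural markers did move: against mESC, 3 of the 8 were higher in p-NSC_L (Slc1a3 by 0.90 ± 0.10, Fabp7 by 0.74 ± 0.15 and Egfr by 0.58 ± 0.11) and Pax6 was lower (-1.40 ± 0.12). In p-NSC_LF, Ptprz1 was higher than in mESC by 2.05 ± 0.15 and Egfr by 0.69 ± 0.11, and Pax6 was lower (-1.32 ± 0.12). Apart from Fabp7, these genes were chosen after their values were seen. The intermediate filament gene Nes averaged 7.10 in p-NSC_L and 7.28 in p-NSC_LF, against 7.48 in mESC. Pou5f1, the pluripotency factor Oct4, averaged 11.05 in d-NSC, against 6.94 in CNS-NSC. In these bulk samples a smaller share of cells with a transcript cannot be told from less RNA per cell.

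Cyclin D2, Ccnd2, which links growth factor signals to Cdk4 and Cdk6, showed the widest range of the 9 genes. It read 9.69 and 9.50 in mESC, 8.22 and 8.64 in p-NSC_L, 8.04 and 8.36 in p-NSC_LF, 13.43 and 13.46 in d-NSC, and 13.70 and 13.63 in CNS-NSC. The 4 neural stem cell arrays lay above all 6 others by more than 3 units, and the primitive arrays were the lowest. Ccnd2 rose 37.9-fold in d-NSC against p-NSC_LF (5.24 ± 0.16, adjusted p = 2.5e-08 by limma). It was also higher in d-NSC than in mESC, by 3.85 ± 0.16. In p-NSC_L it fell by 1.16 ± 0.16 against mESC. The difference of d-NSC from CNS-NSC was -0.22 ± 0.16 (adjusted p = 0.33), with an interval (95%) from -0.57 to 0.13.

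Cyclin D1, Ccnd1, the D-type cyclin best known as a target of mitogen and Wnt signals, had its highest level in CNS-NSC alone. It read 11.00 and 10.86 in mESC, 9.31 and 9.73 in p-NSC_L, 10.18 and 10.17 in p-NSC_LF, 11.84 and 11.84 in d-NSC, and 13.40 and 13.62 in CNS-NSC. No 2 cultures overlapped, with d-NSC second to CNS-NSC and p-NSC_L the lowest. Ccnd1 fell by 1.41 ± 0.14 in p-NSC_L against mESC (adjusted p = 2.8e-04 by limma) and rose by 1.67 ± 0.14 in d-NSC against p-NSC_LF. It was lower in d-NSC than in CNS-NSC, a log2 difference of -1.67 ± 0.14 (adjusted p = 1.0e-05). Passage with FGF gave a difference of 0.66 ± 0.14 in p-NSC_LF against p-NSC_L (adjusted p = 0.055). That difference was called under both other normalizations, both filters on dim genes and a trended prior (adjusted p from 0.035 to 0.042), without either CNS-NSC array (adjusted p = 0.042) and without p-NSC_L replicate 2 (0.87, adjusted p = 0.0088). Over all 20 alternatives it ran from 0.44 to 0.87, with adjusted p from 0.0088 to 0.32.

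Cyclin D3, Ccnd3, the third member of the family, was lower in CNS-NSC than in the 4 cultures of the R1 line, among which no difference was called. It read 10.91 and 10.92 in mESC, 10.79 and 10.86 in p-NSC_L, 10.92 and 10.97 in p-NSC_LF, 10.86 and 10.95 in d-NSC, and 9.74 and 9.56 in CNS-NSC. Both CNS-NSC arrays lay below the 8 others by more than 1 unit. The difference of d-NSC from CNS-NSC was 1.26 ± 0.10 (2.39-fold, adjusted p = 7.7e-06 by limma). Between d-NSC and mESC it was -0.01 ± 0.10, with an interval from -0.24 to 0.22.

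**Figure D1:**
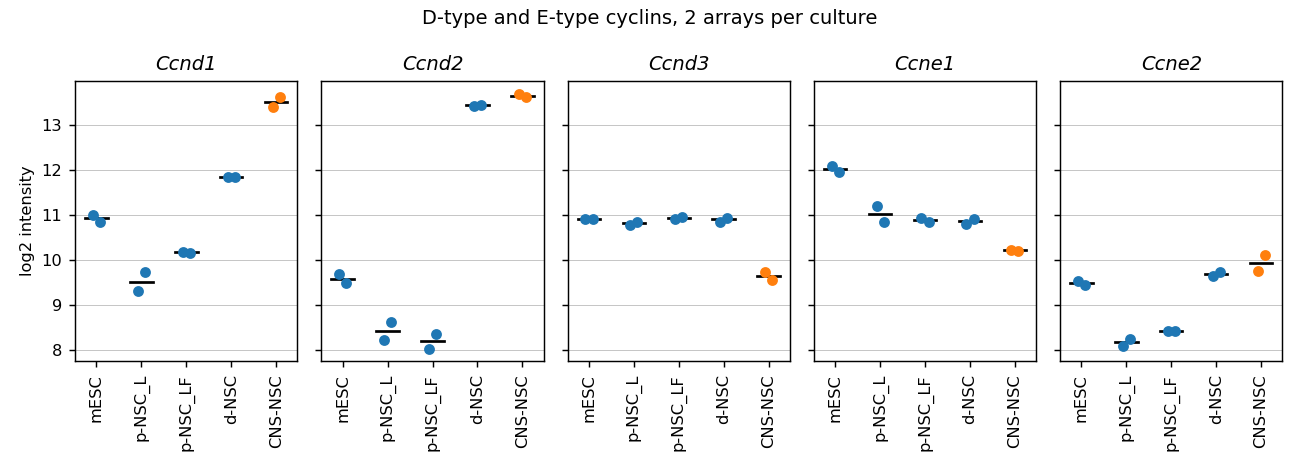
Log2 intensity (vertical axis, shared scale) of 3 D-type and 2 E-type cyclins on each array of the 5 cultures; points are arrays, bars are means of 2 arrays, blue marks R1-derived cultures and orange CNS-NSC. Ccnd2 lies between 13.43 and 13.70 on the 4 d-NSC and CNS-NSC arrays and at 9.69 or below on the other 6, and Ccnd3 lies at 9.74 and 9.56 in CNS-NSC, below its other 8 arrays.

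Cyclin E1, Ccne1, an activator of Cdk2 at the start of S phase, was highest in mESC. It read 12.09 and 11.96 in mESC, 11.21 and 10.86 in p-NSC_L, 10.95 and 10.86 in p-NSC_LF, 10.81 and 10.92 in d-NSC, and 10.23 and 10.21 in CNS-NSC. The mESC arrays lay above all others, the CNS-NSC arrays below all others, and the 3 cultures between them overlapped. Ccne1 fell by 0.99 ± 0.13 in p-NSC_L against mESC (adjusted p = 9.8e-04 by limma). It showed no called change at the next steps, -0.13 ± 0.13 in p-NSC_LF against p-NSC_L and -0.03 ± 0.13 in d-NSC against p-NSC_LF. In d-NSC it was 2.22-fold lower than in mESC (-1.15 ± 0.13) and higher than in CNS-NSC by 0.65 ± 0.13.

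Cyclin E2, Ccne2, the close relative that also binds Cdk2, also fell at the first step and rose again in d-NSC. It read 9.55 and 9.45 in mESC, 8.10 and 8.26 in p-NSC_L, 8.44 and 8.44 in p-NSC_LF, 9.65 and 9.75 in d-NSC, and 9.77 and 10.12 in CNS-NSC. The primitive arrays were the low ones, and no other array read below 9.45. Ccne2 fell 2.50-fold in p-NSC_L against mESC (-1.32 ± 0.13) and rose 2.40-fold in d-NSC against p-NSC_LF (1.26 ± 0.13, adjusted p = 3.1e-05 by limma). The differences of d-NSC from mESC (0.20 ± 0.13) and from CNS-NSC (-0.24 ± 0.13) did not pass the test. CNS-NSC were above mESC by 0.44 ± 0.13 (adjusted p = 0.018), a call that was lost without mESC replicate 2 (adjusted p = 0.10), without CNS-NSC replicate 2 (0.27, adjusted p = 0.13) and in a fit of these 2 groups alone (adjusted p = 0.056). Without CNS-NSC replicate 1 the difference of d-NSC from CNS-NSC was called (-0.42, adjusted p = 0.031).

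Cdkn2c, the INK4 inhibitor p18, separated CNS-NSC from every culture of the R1 line. It read 6.86 and 7.06 in mESC, 6.81 and 6.82 in p-NSC_L, 6.58 and 6.54 in p-NSC_LF, 7.01 and 6.86 in d-NSC, and 10.78 and 11.07 in CNS-NSC. The CNS-NSC arrays lay more than 3 units above the other 8, which were all within 1 unit of each other. Cdkn2c was 15.9-fold lower in d-NSC than in CNS-NSC (-3.99 ± 0.13, adjusted p = 1.6e-08 by limma), and -0.03 ± 0.13 apart between d-NSC and mESC. The 8 R1 arrays lay just above the lower quartile of probe sets, 6.39 to 6.49, and no detection call was available, so the size of the fold is uncertain. A rise of 0.37 ± 0.13 in d-NSC against p-NSC_LF (adjusted p = 0.040) was lost on leaving out any 1 of those 4 arrays (0.29 to 0.45, adjusted p from 0.071 to 0.23), after quantile normalization and with an unmoderated test.

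Cdkn2b, the INK4 inhibitor p15 known as a target of TGF-beta in epithelial cells, was also highest in CNS-NSC. It read 7.46 and 7.65 in mESC, 8.16 and 8.02 in p-NSC_L, 8.10 and 7.98 in p-NSC_LF, 8.0 and 7.89 in d-NSC, and 8.64 and 8.91 in CNS-NSC. The mESC arrays were the lowest and the other R1 cultures lay close together. It was 1.78-fold lower in d-NSC than in CNS-NSC (-0.83 ± 0.13, adjusted p = 5.5e-04 by limma). Against mESC it was higher in p-NSC_L by 0.53 ± 0.13 (adjusted p = 0.021) and in d-NSC by 0.39 ± 0.13 (adjusted p = 0.033). Both of these calls were lost without mESC replicate 1 (0.44, adjusted p = 0.16, and 0.29, adjusted p = 0.21). The first was also lost without mESC replicate 2 (0.63, adjusted p = 0.054) or p-NSC_L replicate 1 (0.46, adjusted p = 0.084), and the second without d-NSC replicate 1 (0.33, adjusted p = 0.18) or replicate 2 (0.45, adjusted p = 0.073).

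Cdkn2a, the neighbouring locus of p16INK4a and p19ARF, was higher in both primitive cultures than in mESC or d-NSC. It read 7.87 and 7.88 in mESC, 8.39 and 8.39 in p-NSC_L, 8.36 and 8.39 in p-NSC_LF, 7.85 and 7.85 in d-NSC, and 8.50 and 8.36 in CNS-NSC. The mESC and d-NSC arrays formed the lower band and the primitive and CNS-NSC arrays the upper one. Cdkn2a rose by 0.51 ± 0.10 in p-NSC_L against mESC (adjusted p = 0.0067 by limma) and fell by 0.52 ± 0.10 in d-NSC against p-NSC_LF (adjusted p = 0.0015). In d-NSC it was lower than in CNS-NSC by a log2 difference of -0.58 ± 0.10. The rise in p-NSC_L was lost without mESC replicate 1 (0.51, adjusted p = 0.054) and in a fit of these 2 groups alone (adjusted p = 0.050). At the step to d-NSC the neighbour Cdkn2b differed by -0.09 ± 0.13 (adjusted p = 0.63), with an interval from -0.38 to 0.19, against -0.74 to -0.31 for Cdkn2a; the difference between the genes was not tested.

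Cdkn1b, the Cip/Kip inhibitor p27, was lowest in mESC and highest in d-NSC and CNS-NSC, over a narrow range. It read 10.42 and 10.57 in mESC, 10.74 and 10.92 in p-NSC_L, 10.79 and 10.82 in p-NSC_LF, 11.24 and 11.17 in d-NSC, and 11.18 and 11.22 in CNS-NSC. All d-NSC and CNS-NSC arrays lay above the primitive ones, and these above mESC. It was higher in d-NSC than in mESC by 0.71 ± 0.11 (adjusted p = 3.9e-04 by limma) and than in p-NSC_LF by 0.40 ± 0.11 (adjusted p = 0.013). A second, dimmer probe set of Cdkn1b spread by up to 1.19 between replicates of p-NSC_LF. With the mean of both probe sets these differences were 0.51 (adjusted p = 0.079) and 0.16 (adjusted p = 0.61). The smaller one was also lost without p-NSC_LF replicate 1 (0.38, adjusted p = 0.077), p-NSC_LF replicate 2 (0.41, adjusted p = 0.059) or d-NSC replicate 1 (0.37, adjusted p = 0.089).

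**Figure D2:**
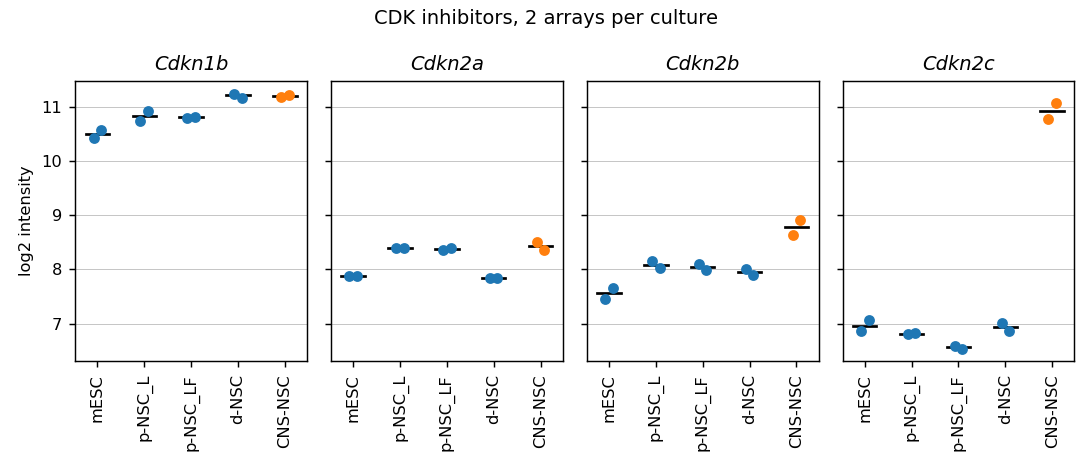
Log2 intensity (vertical axis, shared scale) of 4 CDK inhibitors on each array of the 5 cultures; points are arrays, bars are means of 2 arrays, blue marks R1-derived cultures and orange CNS-NSC. Cdkn2c lies at 10.78 and 11.07 in CNS-NSC and at 7.06 or below on the 8 other arrays, while Cdkn2a moves within about 1 unit.

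By comparison, p-NSC_L against mESC showed 4 cyclins lower, 2 INK4 genes higher and 3 genes not called, 6 of 9 in all, against 13.4% of all genes, 6.56% higher and 6.79% lower. The 4 cyclins were Ccnd1, Ccnd2, Ccne1 and Ccne2. The median difference of the 5 cyclins was -1.16 and that of the 4 inhibitors 0.42, against 0.02 for all genes. Fibroblast markers moved at this step too: 5 of 10 were higher and 1 lower in p-NSC_L, and their mean level was 7.74 and 7.92 in p-NSC_L, against 7.16 and 7.23 in mESC. Dcn, the matrix proteoglycan decorin, averaged 9.60 in p-NSC_L, with 8.79 and 10.41 on its arrays, against 6.27 in mESC. Col1a2, a collagen chain of fibroblasts, differed by 0.21 ± 0.10 (adjusted p = 0.23 by limma). Of 8 primitive endoderm markers, 4 were higher in p-NSC_L and none lower, of 8 neuronal markers 1 was higher and 2 lower, and of 4 astrocyte markers 1 was higher and none lower. The part of these cells in the differences was not tested.

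Around the members, E2F and S phase targets showed 5 of 21 genes lower and none higher in p-NSC_L against mESC, with a median of -0.23. They included Rrm2, a subunit of ribonucleotide reductase, at -0.72 ± 0.09. Among 17 genes of the Rb and E2F families 5 fell and none rose, including the E2F partner Tfdp1 at -0.57 ± 0.12. Of 14 genes of G2 and mitosis 4 fell and none rose, with the mitotic kinase Plk1 at -0.58 ± 0.11. The kinases parted: Cdk6 fell by 0.89 ± 0.17 and Cdk2 rose by 0.62 ± 0.10, the only calls among 12 kinases and activators.

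For p-NSC_LF against p-NSC_L, limma called none of the 9 genes, against 1.78% of all genes, 1.10% higher and 0.677% lower, and 1 of the 9, Ccnd1, had an unadjusted p below 0.05. Limma with a trended prior called Ccnd1 and the unmoderated test called none. The intervals of the other 8 genes lay between -0.58 and 0.55. Of 15 factors upstream of D-type cyclins 2 rose, the AP-1 subunit Jun by 1.27 ± 0.13 and the ETS factor Etv4 by 0.90 ± 0.14, and none fell. No gene was called among the Rb and E2F families, S phase targets, G2 and mitosis genes, kinases or turnover factors. These lists held 12 to 21 genes each, and at the share of all genes called, 1.78%, such lists would hold few calls or none. Among 12 p53 targets 1 rose, the cell adhesion gene Perp, by 1.20 ± 0.18, and none fell.

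For d-NSC against p-NSC_LF, 5 of the 9 genes rose and Cdkn2a fell, against 38.6% of all genes called, 19.3% higher and 19.3% lower. Ccnd1, Ccnd2, Ccne2, Cdkn1b and Cdkn2c were the genes that rose, and Ccnd3, Ccne1 and Cdkn2b were not called. The kinase partners of D-type cyclins rose at the same step, Cdk6 by 1.24 ± 0.17 and Cdk4 by 0.55 ± 0.10. Of the 12 kinases and activators 3 rose, 1 fell (Mnat1, -0.52 ± 0.13) and 8 were not called. Among 17 genes of the Rb and E2F families 6 rose and 4 fell. The retinoblastoma gene Rb1 rose by 0.95 ± 0.11 and its relative Rbl2 fell by 1.20 ± 0.13. Cdkn1c, the Cip/Kip inhibitor p57 known from cells that leave the cycle, rose by 1.52 ± 0.27, the 1 call among 3 further inhibitors. It averaged 8.62 in mESC, 7.82 in both primitive cultures and 9.35 in d-NSC, and read 9.01 and 7.88 in CNS-NSC. None of the 3 was called higher in d-NSC against mESC.

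Of the 15 upstream factors 6 rose and 3 fell in d-NSC against p-NSC_LF. For this and the other lists at this step, the share of all genes was 19.3% higher and 19.3% lower. Gli3, a factor of the hedgehog pathway, rose by 2.45 ± 0.17, and Lef1, a factor of the Wnt pathway, by 2.29 ± 0.11. Stat3, the factor through which Lif acts, fell by 1.08 ± 0.12, to a mean of 9.66 in d-NSC. It averaged 11.39 in CNS-NSC, for which no Lif was listed either. At the step to d-NSC, E2F and S phase targets did not move as 1 group, with 3 of 21 higher and 7 lower. Mybl2 and Orc1, a cell cycle transcription factor and a subunit of the origin recognition complex, fell by 2.36 ± 0.13 and 1.60 ± 0.16. Of the 12 Polycomb and associated genes, listed for their known repression of the Cdkn2a locus, 7 rose and 3 fell. Cbx2 rose by 1.06 ± 0.11, while the Polycomb subunits Eed and Suz12 fell by 1.48 ± 0.10 and 1.30 ± 0.13. Hmga2, a chromatin protein that lowers Cdkn2a in mouse neural stem cells, rose by 1.02 ± 0.19. Hmga2 was also higher in p-NSC_L than in mESC, by 1.40 ± 0.19, where Cdkn2a rose by 0.51 ± 0.10. In d-NSC against mESC Hmga2 was higher by 2.36 ± 0.19, and Cdkn2a differed by -0.02 ± 0.10. In d-NSC against CNS-NSC Hmga2 was higher by 2.08 ± 0.19, and Cdkn2a differed by -0.58 ± 0.10. A link between the 2 genes was not tested. Neuronal markers moved in d-NSC against p-NSC_LF as well, 7 of 8 higher and 1 lower. Their mean level was 9.39 on both d-NSC arrays, against 7.92 and 7.94 in p-NSC_LF. Of 10 fibroblast markers 6 were higher and 1 lower (mean level 8.13 and 8.08 in d-NSC, against 7.29 in p-NSC_LF), and of 8 primitive endoderm markers 4 were higher and 1 lower. Of 4 endothelial markers 2 were higher and 2 lower, and of 4 astrocyte markers 1 was lower. The part of such cells in the differences was not tested.

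For d-NSC against mESC, which spans all steps, 4 of the 9 genes were higher and 1 was lower, against 40.5% of all genes called, 20.7% higher and 19.9% lower. Higher were Ccnd1 (0.91 ± 0.14), Ccnd2, Cdkn1b and Cdkn2b, and lower was Ccne1. S phase targets were lower in d-NSC in 15 of 21 cases and higher in none, with Orc1 at -2.18 ± 0.16, and G2 and mitosis genes in 10 of 14 and higher in none, with the spindle checkpoint gene Bub1b at -0.98 ± 0.09. Gsk3b, a kinase that marks D-type cyclins for breakdown, was higher by 1.08 ± 0.11, 1 of 3 rises beside 2 falls among 13 turnover factors. Rbl2 differed by -1.64 ± 0.13. Markers of other cells moved here too. Of 10 fibroblast markers 7 were higher and 1 lower, with a mean level of 8.13 and 8.08 in d-NSC, against 7.16 and 7.23 in mESC. Of 8 neuronal markers 6 were higher and 1 lower, with a mean level of 9.39 on both d-NSC arrays, against 8.25 and 8.24 in mESC. Of 8 primitive endoderm markers 5 were higher and none lower, and of 4 endothelial markers 2 were higher and 2 lower. Their part in the differences was not tested. This comparison shares the mESC arrays with the first and the d-NSC arrays with the third, so it is not independent of them.

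For d-NSC against CNS-NSC, the pair of neural stem cells of different origin, 6 of the 9 genes were called, against 34.0% of all genes. Ccnd3 and Ccne1 were higher in d-NSC (17.6% of all genes were), and Ccnd1, Cdkn2a, Cdkn2b and Cdkn2c were lower (16.5%). All 3 INK4 genes measured among the members were thus lower in d-NSC, and so was the fourth gene of that family, Cdkn2d (p19INK4d), at -0.92 ± 0.11. Cdkn1b differed by 0.01 ± 0.11 on the probe set used, with an interval from -0.23 to 0.24. Its second, dimmer probe set read 7.39 and 7.64 in d-NSC, against 8.79 and 7.86 in CNS-NSC. Under the alternatives the difference ran from -0.40 to 0.04 and was never called. Of 12 genes for kinases and activators 6 were higher in d-NSC and none lower, with Cdk6, the kinase that INK4 proteins bind, at 2.24 ± 0.17. Mycn was higher in d-NSC by 3.28 ± 0.20 and Myc lower at -2.07 ± 0.18, both factors that can drive Ccnd2. Pcgf2, a Polycomb subunit, was higher by 2.34 ± 0.23, and its relative Bmi1, the best known repressor of Cdkn2a, lower at -1.26 ± 0.22. Of 4 astrocyte markers 2 were lower in d-NSC and none higher, and of 8 neuronal markers 4 were higher and 1 lower. Of 8 primitive endoderm markers 7 were higher and none lower, with a mean level of 9.07 and 9.04 in d-NSC, against 7.73 and 7.72 in CNS-NSC. All 4 endothelial markers were higher, with a mean level of 8.17 and 8.20 in d-NSC, against 6.96 and 6.95 in CNS-NSC. The same mean was 8.25 and 8.30 in mESC, where Pecam1 and Tek lay above their d-NSC levels and Cdh5 and Kdr below them. Of 10 fibroblast markers 5 were higher and 2 lower, with a mean level of 8.13 and 8.08 in d-NSC, against 8.0 and 7.71 in CNS-NSC. Among them Dcn averaged 9.54 in d-NSC, against 6.35 in CNS-NSC, while Fbln2 averaged 8.73 in d-NSC, against 12.09 in CNS-NSC. The part of these cells in the differences was not tested. The 4 microglial markers, with mean levels of 6.97 to 7.03 on the arrays of both groups, showed no call.

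For CNS-NSC against mESC, all 9 genes were called, 7 higher and 2 lower, against 43.8% of all genes, 21.7% higher and 22.1% lower. Ccnd2 rose 16.8-fold (4.07 ± 0.16), Cdkn2c 15.6-fold (3.97 ± 0.13) and Ccnd1 5.99-fold (2.58 ± 0.14), while Ccne1 fell by 1.80 ± 0.13 and Ccnd3 by 1.27 ± 0.10. All 4 inhibitors were higher, with Cdkn2b at 1.22 ± 0.13 and Cdkn2a at 0.56 ± 0.10. S phase targets were lower in 15 of 21 cases and higher in none, with Mybl2 at -3.09 ± 0.13. Mki67, a gene of cycling cells, was higher by 0.50 ± 0.13, the only rise among 14 genes of G2 and mitosis, of which 5 fell. Of 4 astrocyte markers 3 were higher and none lower, with a mean level of 7.57 on both CNS-NSC arrays, against 6.67 and 6.85 in mESC. Of 8 neuronal markers 4 were higher and 2 lower, and here CNS-NSC replicate 1 stood apart, with a mean level of 8.79 and 8.17 on the CNS-NSC arrays, against 8.25 and 8.24 in mESC. Fibroblast markers showed 2 of 10 higher and 1 lower, primitive endoderm markers 1 of 8 higher and 2 lower, and endothelial markers 2 of 4 lower. The part of such cells in the differences was not tested. Replicates were less alike in CNS-NSC, with 277 genes at least 2-fold apart, and in p-NSC_L, with 167, than in the other cultures, with 1 to 30.

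**Figure D3:**
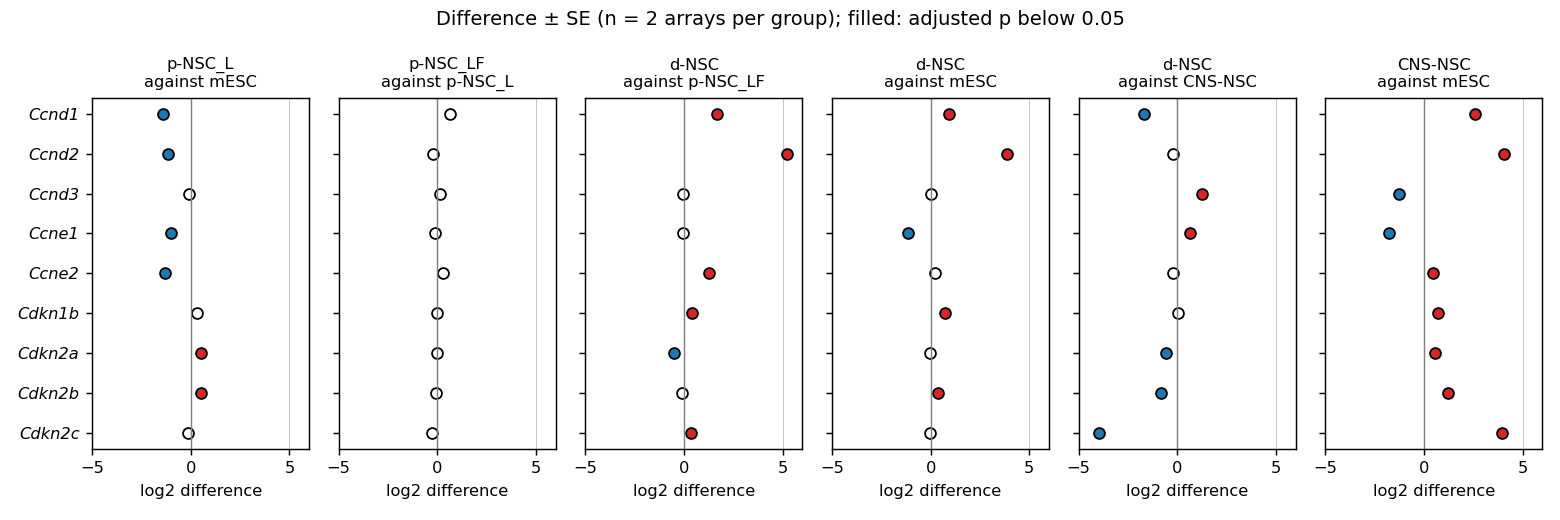
Log2 difference, first group minus second, with SE (bars, mostly hidden by the points) for 9 genes in 6 comparisons; filled points passed the adjusted threshold of 0.05, red higher and blue lower, and open points did not. The largest positive value is that of Ccnd2 in d-NSC against p-NSC_LF (5.24) and the largest negative one that of Cdkn2c in d-NSC against CNS-NSC (-3.99).

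**Figure D4:**
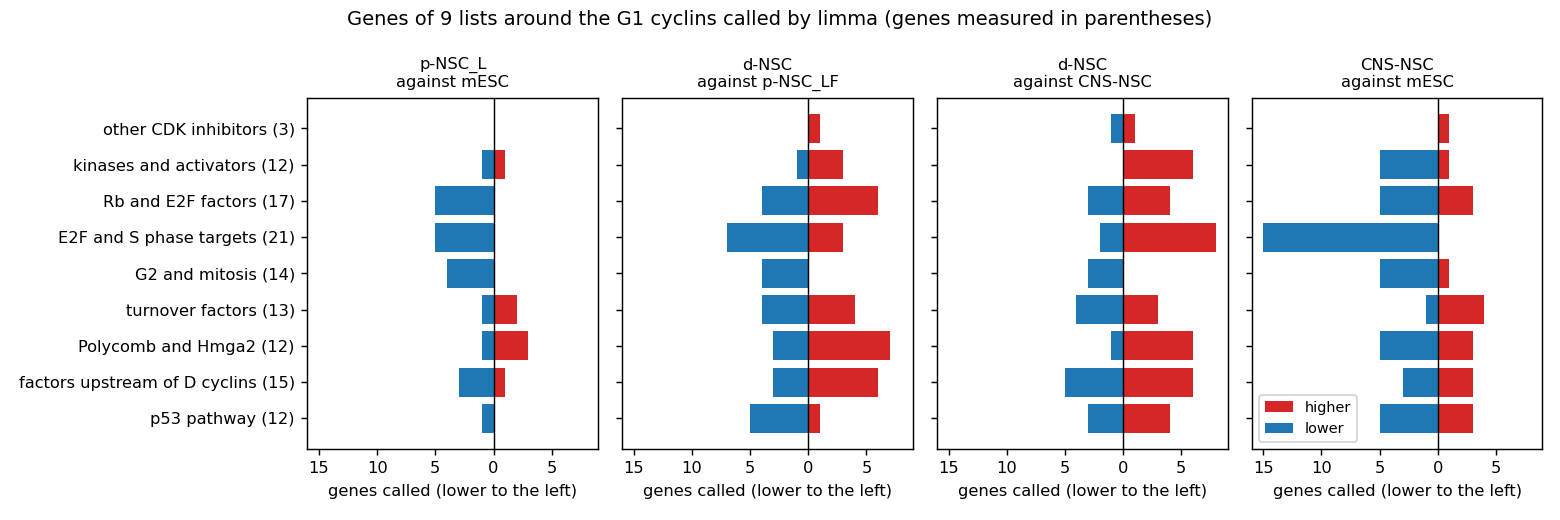
Number of genes called higher (red, to the right) and lower (blue, to the left) in 9 lists of genes around the G1 cyclins, in 4 comparisons, with the genes measured in parentheses. S phase targets show 15 of 21 genes lower in CNS-NSC against mESC, and 8 higher with 2 lower in d-NSC against CNS-NSC.

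The 4 remaining pairs of cultures complete the order of levels. In p-NSC_LF against mESC 2 of the 9 genes were higher and 4 lower, 6 in all, against 15.3% of all genes, 7.85% higher and 7.41% lower. In d-NSC against p-NSC_L 4 were higher and 1 lower, against 39.9% of all genes called, 20.5% higher and 19.4% lower. In CNS-NSC 6 were higher and 2 lower against p-NSC_L, where 43.6% of all genes were called, 22.0% higher and 21.7% lower. The counts were also 6 and 2 against p-NSC_LF, where 41.9% of all genes were called, 20.6% higher and 21.3% lower. For Ccnd1 the steps between all neighbours passed the test except that between p-NSC_L and p-NSC_LF. For Ccnd2 the steps from p-NSC_L to mESC (1.16) and from mESC to d-NSC (3.85) passed. For Ccne1 they were those from CNS-NSC to d-NSC (0.65) and from p-NSC_L to mESC (0.99), and for Ccne2 only that from p-NSC_LF to mESC (1.07, adjusted p = 5.8e-04 by limma). Ccnd3 and Cdkn2c each had a single step, CNS-NSC below and above all others. Cdkn2b had steps at both ends, mESC below d-NSC and p-NSC_L below CNS-NSC, with the 3 cultures between not told apart. Cdkn1b had its step between p-NSC_L and CNS-NSC (0.37, adjusted p = 0.016), and Cdkn2a between mESC and p-NSC_LF (0.50, adjusted p = 0.0066).

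The genes with the most similar course were found by the root mean square distance between centred group means over the 5 cultures. Nearest to Ccnd2 was Nnat, an imprinted gene of the developing brain, at a distance of 0.26, with means of 8.31 in mESC, 7.49 in p-NSC_L, 7.60 in p-NSC_LF, 12.27 in d-NSC and 12.41 in CNS-NSC. Nearest to Ccnd1 were Fjx1 (0.12) and Bche (0.16), nearest to Cdkn2c were Lhfpl3 (0.09) and Slc25a18 (0.13), and nearest to Ccnd3 were Hif3a (0.05) and Dera (0.06). For Ccne1 they were Gm10785 and Uspl1 (both 0.11), for Ccne2 Crybg3 (0.13) and Lysmd2 (0.15), and for Cdkn2b Agpat3 and Mgat5 (both 0.04). The distances are descriptions over 5 means and were not tested, and say nothing of shared control.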

How the data were processed

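RMA and Partek are named in the submitters' processing notes, with no version. The authors deposited log2 intensities, 1 for each of 35556 probe sets on each of 10 arrays. RMA corrects for background and equalises the arrays, and it compresses differences between dim probe sets. No header states the log base, which follows from values between 2.07 and 14.74 with array medians of 7.66 to 7.76. By the platform annotation 21789 probe sets had 1 symbol and were used, 1621 had several and 12146 had none here. The highest-mean probe set represented each of 19938 genes, unfiltered.

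Group means were fitted in limma 3.58.1 (R 4.3.3) to all arrays, leaving 5 residual and 4.9 prior degrees of freedom, and p-values were adjusted by Benjamini-Hochberg per comparison. The fit was tested on simulated data. Python 3.11.15, pandas 2.3.3 and matplotlib 3.10.9 made tables and plots. The members, lists and tests were chosen with earlier results of these data known. The rule for named genes took, per list and comparison, up to 2 called genes with the largest rise and 2 with the largest fall, 6 landmark genes, and the 2 genes most like each member that spans at least 1; the text gives a part. Some listed genes are not reported here. Alternatives were other normalizations, filters, variance models, weights, probe-set averaging, a replicate block, a fit of only 2 groups, and each array left out.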

Additional observations from a re-analysis of the deposited data

How the results depend on the processing

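Alternatives were run for the 6 comparisons in the plot of differences; the 4 remaining pairs of cultures, which complete the order of levels, were fitted under no alternative. Of the 32 called differences of single genes in those 6 comparisons, 25 kept their call under each of the 20 alternatives that measured the gene. None of all 54 differences changed sign where the main fit or the alternative called it. Some that neither called did change sign, such as Ccne1 in p-NSC_LF against p-NSC_L (-0.31 to 0.04). The other 7 called differences, between 0.37 and 0.71 in size, are given beside the results, and the cause of their losses was not tested. The further losses there were of Cdkn2b in p-NSC_L against mESC, unmoderated (adjusted p = 0.073), with array weights (0.055) and in a fit of 2 groups (0.062), and in d-NSC against mESC, with quantile normalization (0.26, adjusted p = 0.12) and unmoderated (0.070). The number of members called in p-NSC_LF against p-NSC_L was 0, but 1 (Ccnd1) with quantile or cyclic loess normalization, with the dimmer 30% or 50% of genes left out, and with a trended prior; leaving out single arrays gave 0 to 1. Cdkn1b in p-NSC_L against mESC (0.33, adjusted p = 0.070) was called under the same 5 settings and without p-NSC_L replicate 1 (0.42, adjusted p = 0.043). Leaving out the dimmer 50% of genes dropped 2 members from the test. With the replicate block 6 members were called in p-NSC_L against mESC, 6 in d-NSC against p-NSC_LF and 9 in CNS-NSC against mESC, as without it, and no member's call changed. Replicate 1 arrays deviated together, with a correlation above 0.1, in the 6 pairs of cultures without d-NSC (0.14 to 0.37) and in none of the 4 with it (-0.11 to 0.09). Since not every pair was above 0.1, and nothing in the labels ties the numbers to a shared batch, they were not taken as pairs.

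Over all genes, the 2662 calls in p-NSC_L against mESC became 1102 without mESC replicate 1, 1205 without mESC replicate 2, 1587 unmoderated and 1480 in a fit of these 2 groups. The 355 calls in p-NSC_LF against p-NSC_L became 89 unmoderated, 208 with array weights and 99 in a fit of these 2 groups. They ranged from 48, without p-NSC_LF replicate 1, to 826, without p-NSC_L replicate 2. With 2 arrays per group, and levels of Cdkn2c near the lower quartile of probe sets, small differences may go unseen.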
